A study of Mus musculus with 30 samples.

Results

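The cell cycle, DNA replication and mitosis genes described here are a list of 55 mouse genes, matched by gene symbol in the deposited transcript tables. Of the 55, 47 had at least 1 listed transcript in at least 1 of 4 tables, 30 were listed in all 4, and 8 (Ccnb1, Aurka, Aurkb, Tpx2, Ect2, Cdc6, Gins2 and Uhrf1) were listed in none. They accounted for 67 of 20423 listed transcripts. RNA was sequenced from an axoplasm-enriched extract, the supernatant of mouse sciatic nerve ground with a pestle and spun, taken 7 days after a crush of the nerve (injured) or from uncrushed nerve (naive). For each state there were 3 libraries of input RNA, 3 of RNA immunoprecipitated (IP) by a nucleolin or a PTBP1 antibody, and, for each antibody, 3 of a blocked IP, where its blocking peptide had occupied the antibody beforehand. This made 10 groups and 30 libraries. Nucleolin and PTBP1 are RNA-binding proteins, and the series asked which RNAs they bind before and after injury. Each sample pooled 10 nerves, and the study describes the 3 repeats as independent. The sources used here give no strain, sex or age. Every group shares this extract of the whole ground nerve, in which markers of Schwann cells, macrophages and fibroblasts were detected as well as those of neurons.

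Mature neurons do not divide. After a crush the axons beyond the lesion degenerate, Schwann cells lose their myelin programme and proliferate, and macrophages enter the nerve and divide there too. The programme runs in order. E2F factors and cyclin E open S phase, the MCM helicase unwinds DNA for the polymerases, and ribonucleotide reductase supplies nucleotides. Cyclins A and B with Cdk1 then drive mitosis, kinetochores attach chromosomes to the spindle, and the anaphase-promoting complex destroys the cyclins so that the cell can divide. Promoters of G1/S genes often hold E2F sites, and promoters of G2/M genes often hold CCAAT boxes and the cell cycle homology region (CHR), which are background for the sequences below.

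Because many members moved together in input, the 250 bases before the annotated start are shown for 1 member in each of 4 roles. Each is the member of that role with the highest mean input level among those that rose in input and have an entry, taken from RefSeq on GRCm38.p6 and read 5′ to 3′ on the gene's strand. Capitals mark matches on either strand to the CHR, spelled TTTGAA, to the box that the nuclear factor Y complex binds, spelled CCAAT, and to E2F sites. An E2F match is any of 3 strings searched here, of which the first is spelled TTCCCGC, while another is spelled TTGGCGC, and the remaining string is spelled TTCGCGC. The CCAAT match on the opposite strand therefore reads ATTGG. Ccnb2, cyclin B2, has its window at chr9:70421555-70421804 on the minus strand and its listed transcript has 9 exons. Cenpf, a kinetochore protein, has its window at chr1:189688087-189688336 on the minus strand, before a transcript of 18 exons. Mcm3, a subunit of the replicative helicase, has its window at chr1:20820313-20820562 on the minus strand, before a transcript of 17 exons. Rrm1, the large subunit of ribonucleotide reductase, has its window at chr7:102441445-102441694 on the plus strand, before a transcript of 19 exons.
Ccnb2: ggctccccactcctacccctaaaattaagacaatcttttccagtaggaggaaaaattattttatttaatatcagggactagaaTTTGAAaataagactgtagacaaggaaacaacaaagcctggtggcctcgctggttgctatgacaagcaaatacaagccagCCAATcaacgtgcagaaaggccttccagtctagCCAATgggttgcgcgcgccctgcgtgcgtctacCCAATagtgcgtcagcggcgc
Cenpf: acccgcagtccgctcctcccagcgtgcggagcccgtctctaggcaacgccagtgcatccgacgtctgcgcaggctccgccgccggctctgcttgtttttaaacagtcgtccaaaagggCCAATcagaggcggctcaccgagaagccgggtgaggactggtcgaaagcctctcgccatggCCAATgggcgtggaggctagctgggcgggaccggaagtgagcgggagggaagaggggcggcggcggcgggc
Mcm3: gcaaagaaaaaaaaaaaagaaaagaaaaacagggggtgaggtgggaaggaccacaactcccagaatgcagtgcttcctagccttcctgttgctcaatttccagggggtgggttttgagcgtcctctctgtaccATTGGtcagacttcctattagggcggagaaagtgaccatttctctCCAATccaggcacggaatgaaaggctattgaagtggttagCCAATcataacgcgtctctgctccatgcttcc
Rrm1: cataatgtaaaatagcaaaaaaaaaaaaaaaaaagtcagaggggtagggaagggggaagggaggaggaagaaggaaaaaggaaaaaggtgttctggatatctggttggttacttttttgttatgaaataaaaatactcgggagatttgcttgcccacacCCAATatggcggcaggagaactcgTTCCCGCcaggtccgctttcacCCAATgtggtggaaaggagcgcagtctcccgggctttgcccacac

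The Ccnb2 window held 3 CCAAT matches and 1 CHR match. Its CCAAT matches began 87, 54 and 21 bases before the start, and its CHR match 167 bases before it. The Cenpf window held 2 CCAAT matches, and the Mcm3 window 3, of which 1 was on the opposite strand. The Rrm1 window held 2 CCAAT matches with an E2F match, TTCCCGC, between them. Among the 46 members with an entry, 34 (73.9%) had a CCAAT match, against 34.5% of 27025 mouse genes in the same table. An E2F match was present in 12 of the 46 members (26.1%), against 6.79% of genes, and a CHR match in 11 (23.9%), against 16.3%. The 46 include members that did not rise or were not tested in input. Of the 30 with an entry that rose in input, 23 had a CCAAT match, 5 an E2F match and 8 a CHR match. For members tested in input the entry nearest the tested transcript was used, and for the other members and all other genes the first entry. A match is a string of letters in this window, and binding was not measured. Ccna2, Aurkb, Foxm1, Incenp, Tpx2, Mcm4, Gins2, Pole and Ccne2 had no entry in the table.

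The libraries held 7536033 to 22919174 counts over the listed transcripts, and the tables list only transcripts above a floor of 5 counts, so these totals are not the full depth. In input the floor was required of injured inputs 2 and 3. A transcript absent from those libraries was therefore not listed, and 7 of the members tested (Birc5, Brca1, Bub1, Cdca3, Cdk1, E2f1 and Prc1) had fewer than 5 counts in at least 1 naive input, so these could enter through the injured libraries. The count of members that rose in input is a description under that condition, and the share of all transcripts beside it was measured under the same floor. All 7 were among the members called higher in input. Their input fold changes and adjusted p-values below are likewise descriptions under that condition. Counts are per transcript, and each gene is represented by its tested transcript of highest mean CPM (counts scaled to a common library size after TMM normalisation) over the libraries of the fit. For Prc1 in the input and nucleolin fits this was a retained-intron form, for Pole in the PTBP1 fit as well, and for Tyms a transcript annotated for nonsense-mediated decay. Cenpk and Prc1 are represented by another transcript in the PTBP1 fit than in the input and nucleolin fits, so their values there are of another form.

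The comparison of injured with naive input asked how the RNA content of the extract changed 7 days after crush. Of the 42 member genes tested, edgeR's quasi-likelihood test over 14095 transcripts, with Benjamini-Hochberg adjustment and a threshold of 0.05, found 33 higher and 0 lower, where 14.5% of all transcripts rose and 13.4% fell. Unadjusted, at p under 0.05, 35 were higher and 0 lower, where 38.8% of all transcripts passed in either direction, and DESeq2 called 34 higher and 0 lower, where it called 33.5% of all transcripts. The median log2 fold change of the members was 2.76, against 0.00 for all transcripts. In 34 members every injured input lay above every naive input, which held for 22.5% of all transcripts. The summed level of the tested members was 1868 to 2174 CPM in the injured inputs and 347 to 414 CPM in the naive inputs, so the groups did not overlap. In bulk samples more dividing cells and more of these RNAs per cell cannot be told apart.

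**Figure D1:**
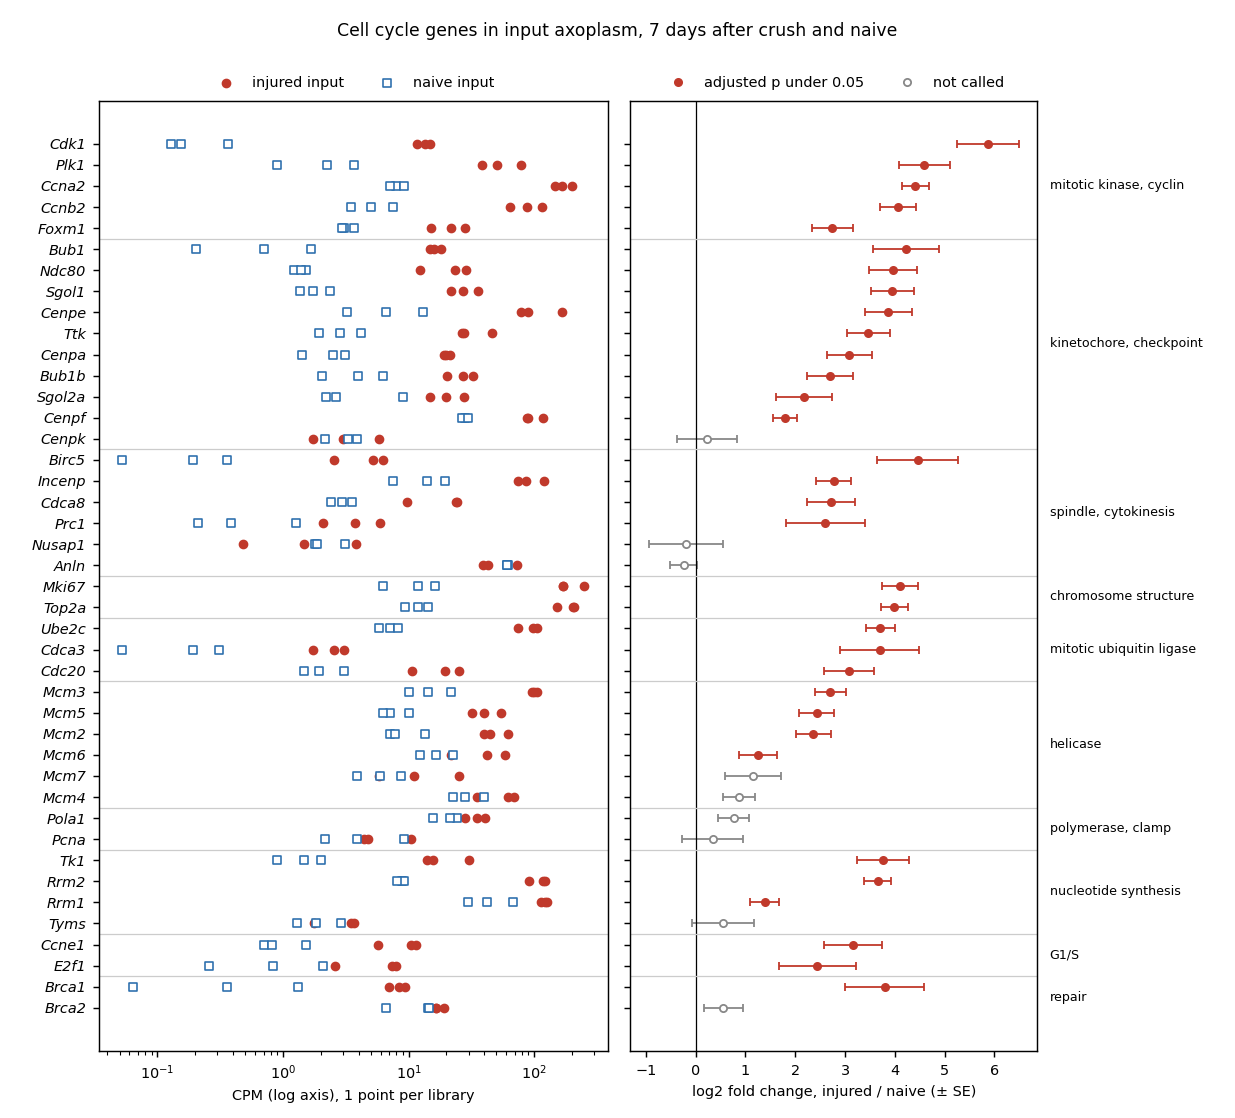
Left, CPM (log axis) of the 42 tested members in each input library, with injured inputs as filled circles and naive inputs as open squares. Right, log2 fold change of injured over naive input with its standard error, filled where the adjusted p was under 0.05: 33 members lie to the right of 0 and are filled, and the 9 open members include Anln, Nusap1, Cenpk and Pcna.

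All 5 tested members of the mitotic kinases, cyclins and their regulators rose. Ccna2, cyclin A2, had 201, 166 and 148 CPM in injured inputs 1 to 3, against 7.90, 9.14 and 7.11 CPM in the naive inputs (log2 fold change 4.41, SE 0.27, adjusted p = 1.43e-06). Ccnb2 had 88.0, 116 and 64.4 CPM in the injured inputs and 3.47, 5.01 and 7.47 CPM in the naive inputs (log2 fold change 4.06, SE 0.37, adjusted p = 1.47e-05). Plk1, a kinase that starts mitosis and builds the spindle poles, had 38.3, 78.7 and 50.4 CPM in the injured inputs, against 0.899, 3.71 and 2.25 CPM in the naive inputs (log2 fold change 4.60, SE 0.50, adjusted p = 4.99e-05). All 3 genes were an order of magnitude above their naive level in every injured library. Cdk1, the kinase that cyclins A and B activate, changed most on the log2 scale, by 5.87 (SE 0.62, adjusted p = 4.04e-05), and rested on 464 counts over the injured inputs and 12 over the naive inputs. Cdk1 was below the floor of 5 counts in 2 naive inputs, so it could be listed through the injured inputs, where it was high. Foxm1, a transcription factor of the G2/M programme, rose by 2.74 on the log2 scale (SE 0.42).

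Kinetochore and spindle checkpoint members rose in 9 of 10 cases. Cenpe, the kinetochore motor protein, had 166, 89.7 and 78.9 CPM in the injured inputs and 13.0, 6.63 and 3.22 CPM in the naive inputs (log2 fold change 3.87, SE 0.48, adjusted p = 0.000126). Cenpf had 118, 87.0 and 88.7 CPM in the injured inputs and 27.9, 26.7 and 29.8 CPM in the naive inputs (log2 fold change 1.8, SE 0.24, adjusted p = 0.000246). Ttk, the kinase at the top of the spindle checkpoint, had 45.7, 26.8 and 27.4 CPM in the injured inputs and 1.93, 2.82 and 4.20 CPM in the naive inputs (log2 fold change 3.47, SE 0.43, adjusted p = 0.000127). All 3 separated without overlap, and Cenpf had the smallest log2 fold change of the 9 that rose. The others that rose were Bub1 (4.23) and Bub1b (2.70), which sense unattached kinetochores, Ndc80 (3.97), which binds microtubules, Cenpa (3.09), the centromeric histone, and the cohesin protectors Sgol1 (3.95) and Sgol2a (2.18), all as log2 fold changes. Cenpk, a constitutive centromere protein, had 1.73, 2.99 and 5.84 CPM in the injured inputs and 3.27, 3.87 and 2.15 CPM in the naive inputs, and the groups overlapped (log2 fold change 0.22, SE 0.60, adjusted p = 0.817).

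Spindle and cytokinesis members divided into 4 that rose and 2 that did not pass. Incenp, the scaffold of the chromosomal passenger complex, had 86.0, 119 and 74.7 CPM in the injured inputs and 7.58, 13.9 and 19.4 CPM in the naive inputs (log2 fold change 2.77, SE 0.36, adjusted p = 0.000164). Cdca8, borealin of the same complex, had 9.64, 24.1 and 24.0 CPM in the injured inputs and 3.53, 2.93 and 2.41 CPM in the naive inputs (log2 fold change 2.72, SE 0.48, adjusted p = 0.00125). The third passenger subunit tested, Birc5 (survivin), had a log2 fold change of 4.46 (SE 0.81) on 141 counts over the injured inputs and 11 over the naive inputs. All 3 passenger subunits rose. Anln, anillin of the cleavage furrow, had 39.3, 42.8 and 72.6 CPM in the injured inputs and 61.3, 62.2 and 60.4 CPM in the naive inputs (log2 fold change -0.24, SE 0.28, adjusted p = 0.558). The injured libraries of Anln lay on both sides of its naive ones. Nusap1, a spindle microtubule binder, did not pass either (log2 fold change -0.19, SE 0.75), and Prc1, the midzone bundler, rose by 2.60 through its retained-intron form.

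The chromosome proteins and the mitotic ubiquitin ligase gave 5 of 5. Mki67, the proliferation marker that coats mitotic chromosomes, had 251, 170 and 170 CPM in the injured inputs and 16.3, 11.8 and 6.29 CPM in the naive inputs (log2 fold change 4.10, SE 0.36, adjusted p = 1.21e-05). Top2a, the topoisomerase that untangles sister chromosomes, had 203, 209 and 152 CPM in the injured inputs and 14.3, 11.9 and 9.42 CPM in the naive inputs (log2 fold change 3.99, SE 0.28, adjusted p = 3.84e-06). Both were far above their naive range in every injured library. Ube2c, the ubiquitin-conjugating enzyme of the anaphase-promoting complex, had 98.4, 105 and 74.5 CPM in the injured inputs and 7.06, 5.85 and 8.24 CPM in the naive inputs (log2 fold change 3.71, SE 0.29, adjusted p = 5.97e-06). Cdc20, its mitotic activator, had 19.5, 25.1 and 10.6 CPM in the injured inputs and 1.48, 1.93 and 3.07 CPM in the naive inputs (log2 fold change 3.08, SE 0.51, adjusted p = 0.000841). Cdca3, a factor that triggers entry into mitosis, had 1.73, 3.07 and 2.54 CPM in the injured inputs and 0.193, 0.0522 and 0.307 CPM in the naive inputs (log2 fold change 3.69, SE 0.80, adjusted p = 0.00465). Cdca3 showed the same direction on few reads, with 88 counts over the injured inputs and 10 over the naive inputs.

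Of 6 helicase members tested, 4 rose. Mcm3 had 99.9, 106 and 96.1 CPM in the injured inputs and 10.0, 14.4 and 22.0 CPM in the naive inputs (log2 fold change 2.70, SE 0.31, adjusted p = 7.06e-05). Mcm2 had 39.8, 61.5 and 44.6 CPM in the injured inputs and 7.06, 7.84 and 13.5 CPM in the naive inputs (log2 fold change 2.36, SE 0.35, adjusted p = 0.000446). Mcm4 had 35.1, 61.6 and 68.5 CPM in the injured inputs and 22.6, 28.3 and 39.7 CPM in the naive inputs (log2 fold change 0.87, SE 0.32, adjusted p = 0.0617). These are subunits of 1 ring, and Mcm3 and Mcm2 separated fully while Mcm4 overlapped between the groups. Mcm5 (2.43) and Mcm6 (1.26) rose and Mcm7 did not pass (1.15, SE 0.56, adjusted p = 0.149), all as log2 fold changes. Mcm6 was called in 7 of the 12 other settings tried and Mcm4 in 5, where the adjusted p of Mcm4 ranged from 0.0202 to 0.353 over the 12. Whether the subunits differ from each other was not tested.

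Neither tested polymerase or clamp member passed. Pola1, the catalytic subunit of the priming polymerase, had 28.2, 35.0 and 40.7 CPM in the injured inputs and 15.7, 24.3 and 21.4 CPM in the naive inputs (log2 fold change 0.76, SE 0.31, adjusted p = 0.0842). Pcna, the sliding clamp, had 10.4, 4.76 and 4.42 CPM in the injured inputs and 9.12, 3.92 and 2.15 CPM in the naive inputs (log2 fold change 0.34, SE 0.62, adjusted p = 0.725). Pola1 lay just above its naive range in every injured library, and Pcna overlapped it. The sign of Pcna turned under library-total scaling and without injured input 1 or naive input 3. Pcna has near-identical processed copies in the mouse genome, so the number of its reads that were counted here is uncertain.

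Of 4 nucleotide synthesis members, 3 rose. Rrm1 had 113, 122 and 127 CPM in the injured inputs and 29.5, 41.8 and 67.2 CPM in the naive inputs (log2 fold change 1.39, SE 0.30, adjusted p = 0.00425). Rrm2, the small subunit made in S phase, had 90.7, 121 and 117 CPM in the injured inputs and 8.86, 9.19 and 8.03 CPM in the naive inputs (log2 fold change 3.66, SE 0.27, adjusted p = 4.01e-06). Both subunits separated fully, with the wider gap in Rrm2. Tk1, thymidine kinase, had 15.6, 30.1 and 14.1 CPM in the injured inputs and 0.899, 1.46 and 2.00 CPM in the naive inputs (log2 fold change 3.77, SE 0.52, adjusted p = 0.000259). Tyms, thymidylate synthase, was represented by a decay-annotated transcript and did not pass (0.55, SE 0.62).

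At the G1/S step both tested members rose. Ccne1, cyclin E1, had 10.4, 11.5 and 5.72 CPM in the injured inputs and 0.706, 1.51 and 0.819 CPM in the naive inputs (log2 fold change 3.16, SE 0.59, adjusted p = 0.00179). E2f1, the S phase transcription factor, had 7.91, 7.34 and 2.60 CPM in the injured inputs and 0.257, 0.836 and 2.10 CPM in the naive inputs (log2 fold change 2.44, SE 0.77, adjusted p = 0.0325). Injured input 3 and naive input 3 of E2f1 were close to each other, and E2f1 was called in 7 of 12 other settings. Of the repair members, Brca1 had 6.92, 9.28 and 8.38 CPM in the injured inputs and 0.0642, 1.31 and 0.358 CPM in the naive inputs (log2 fold change 3.79, SE 0.80, adjusted p = 0.00404). Brca2, its partner in homologous recombination, had 16.6, 16.6 and 19.2 CPM in the injured inputs and 14.4, 14.6 and 6.65 CPM in the naive inputs (log2 fold change 0.56, SE 0.40, adjusted p = 0.33). Brca2 separated without overlap by a narrow margin and did not pass the test.

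Levels of different genes were compared per length. In injured input Ube2c had 95.6 CPM per kilobase, Ccnb2 58.3, Ccna2 57.9, Rrm2 50.0 and Top2a 36.0, and Mki67, with a transcript of 10061 bases, had 19.6. In naive input the same genes had 7.29, 3.47, 2.72, 3.97, 2.27 and 1.14 CPM per kilobase. Anln had 11.2 CPM per kilobase in injured input and 13.3 in naive input, and Rrm1 had 30.2 and 11.6. Without a crush Anln and Rrm1 were therefore the members at the top of this scale, ahead of Mcm4, at 8.41.

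Other genes of the same processes were counted from a separate list of 107, of which 77 were tested in input. Of these 53 rose and 1 fell, with a median log2 fold change of 2.39. Among those with the largest change were Spc24 (5.17) and Nuf2 (5.10), as log2 fold changes, which belong to the Ndc80 complex of the kinetochore. Nuf2 rested on mean levels of 2.21 CPM after injury and 0.0555 CPM in naive input. The 1 that fell was Stmn1, a tubulin binder also made by neurons, with a log2 fold change of -1.41 (SE 0.23). Of 24 genes of the G1 brake and its release, 22 were tested, 4 rose and 3 fell. In input 14.5% of all transcripts rose and 13.4% fell, and whether this list differed from them was not tested. Those that rose were Cdkn2a (2.68), Ccnd1 (2.31), Rbl1 (1.89) and Btg1 (1.24), and those that fell were Cdkn1a (-1.27), E2f6 (-1.16) and Rb1 (-0.73). Of those that rose Ccnd1, cyclin D1, drives the cycle, while Cdkn2a, Rbl1 and Btg1 act against division, and the 3 that fell are inhibitors or repressors of the cycle. Those counted by direction beyond the 3 largest changes were named after their values were seen.

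Markers of other cell types moved with injury in the same libraries, where 14.5% of all transcripts rose and 13.4% fell. Of 14 macrophage markers tested, 10 rose and 0 fell, and their summed level was 6356 to 9425 CPM after injury and 1265 to 1998 CPM in naive input. No tested macrophage marker was at 0 in either group. Schwann cell markers had 2 that rose and 7 that fell of 12, with summed levels of 4743 to 7251 CPM after injury and 26654 to 49733 CPM in naive input. Fibroblast markers had 4 that fell of 9, endothelial markers 1 that rose and 1 that fell of 8, and lymphocyte markers 1 that rose of 4. Adipocyte markers fell in 5 of 5 and muscle markers in 4 of 5. Of 16 neuron and axon markers only 9 were tested, and 1 rose and 2 fell, with summed levels of 151 to 239 CPM after injury and 686 to 967 CPM in naive input. The part of these shifts in the members' change was not tested.

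**Figure D2:**
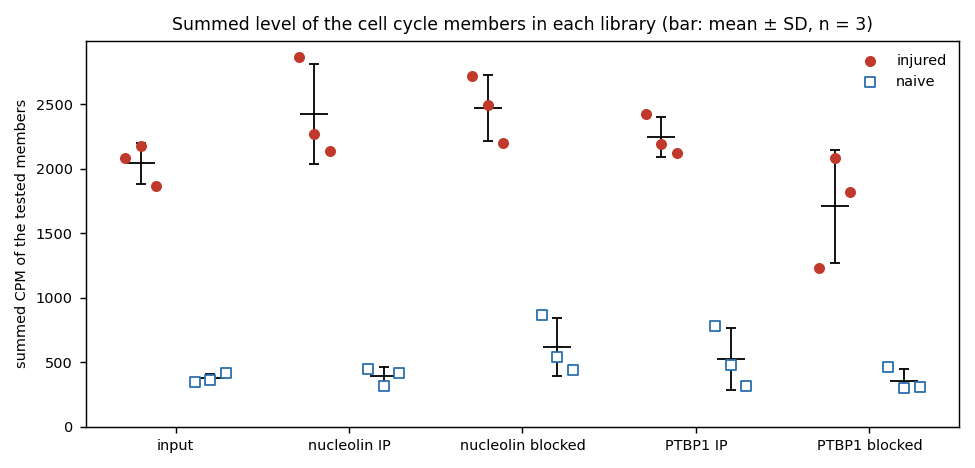
Summed CPM of the tested members in each library of the 5 kinds of material, with injured libraries as filled circles left of the naive libraries as open squares, and the mean ± SD of 3 libraries as a bar. Each antibody and the input were scaled in separate fits with 42 (input), 31 (nucleolin) and 45 (PTBP1) members, and in every material the lowest injured library stands above the highest naive one.

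The nucleolin libraries asked whether the same transcripts were held by the nucleolin antibody. A transcript had to pass the floor in both the injured and the naive table to be compared, which 31 members did. Another 14 were listed in the injured table only (Cdk1, Cenpa, Bub1, Ttk, Sgol1, Birc5, Nusap1, Racgap1, Cdc20, Pole, Rrm2, Tyms, Ccne2 and Brca1) and 1, Pcna, in the naive table only. That is 30.4% and 2.17% of the 46 members in either table, where 16.2% and 8.45% of 13452 gene symbols were in the injured or the naive table only. These 15 have no comparison between injured and naive nucleolin libraries here. The summed level of the 31 was 2139 to 2862 CPM in injured nucleolin IP and 315 to 451 CPM in naive nucleolin IP. In the blocked IPs it was 2203 to 2717 CPM in injured nerve and 439 to 868 CPM in naive nerve.

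After injury 2 of 31 members rose in nucleolin IP, where 0.397% of the 11840 transcripts tested rose, and 17 were higher at an unadjusted p under 0.05, which 12.4% of all transcripts passed in either direction. Mki67 had 541, 353 and 380 CPM in injured nucleolin IP 1 to 3 and 41.8, 17.1 and 25.0 CPM in naive nucleolin IP (log2 fold change 3.93, SE 0.52, adjusted p = 0.00614). Cenpk had 7.85, 3.84 and 5.88 CPM in injured nucleolin IP and 0, 0.095 and 0.0739 CPM in naive nucleolin IP (log2 fold change 6.49, SE 1.34, adjusted p = 0.0419). Neither gene overlapped between the groups, but Cenpk rested on 228 counts over the injured libraries and 2 over the naive ones, a ratio of CPM of 102. All members but 1 had a positive log2 fold change, with a median of 2.30 against -0.08 for all transcripts, and 25 separated without overlap, which held for 14.8% of all transcripts. The call of Cenpk was lost when any 1 of the 6 compared libraries was left out, and both calls were lost without naive nucleolin IP 2. DESeq2 called 12 members, Mki67 among them and Cenpk not, and 7.43% of all transcripts. With only these 6 libraries in the fit 15 members rose. The share of all transcripts that this smaller fit called is not given here, so the 15 cannot be set against it.

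Other members that rose in input had wide gaps in nucleolin IP without passing the test. Ccna2 had 248, 176 and 187 CPM in injured nucleolin IP and 7.87, 3.42 and 11.5 CPM in naive nucleolin IP (log2 fold change 4.74, SE 1.19, adjusted p = 0.095). Foxm1 averaged 47.6 ± 7.16 CPM in injured nucleolin IP and 1.05 ± 0.718 CPM in naive nucleolin IP (SD, n = 3 each), with a log2 fold change of 5.50 and an adjusted p in edgeR of 0.0745. Ube2c had 24.1, 42.1 and 64.0 CPM in injured nucleolin IP and 0.741, 0 and 3.18 CPM in naive nucleolin IP (log2 fold change 5.03, SE 1.29, adjusted p = 0.102). In all 3 genes every injured library lay above every naive one. Dnmt1, the maintenance DNA methyltransferase, was tested in the nucleolin libraries and not in input, and overlapped there (log2 fold change 0.46, SE 1.34, adjusted p = 0.938).

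The 14 members listed in the injured nucleolin table only could be compared between IP and blocked IP of injured nerve, and edgeR on that table called none of the 45 members tested. Rrm2 had 27.0, 70.2 and 76.7 CPM in injured nucleolin IP and 128, 38.7 and 78.5 CPM in injured blocked IP (log2 fold change -0.50, SE 0.56, adjusted p = 0.903). Cdk1 had 4.48, 8.21 and 7.57 CPM in injured nucleolin IP and 8.38, 6.78 and 8.96 CPM in injured blocked IP (log2 fold change -0.25, SE 0.85, adjusted p = 0.973). Both overlapped between IP and blocked IP. Nusap1 had 5.08, 1.47 and 5.23 CPM in injured nucleolin IP and 0, 0 and 0.432 CPM in injured blocked IP, which separated without passing (log2 fold change 4.72, SE 1.77, adjusted p = 0.51).

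In the blocked nucleolin IP 4 of 31 members rose after injury, where 0.735% of all transcripts rose. Unadjusted, 17 were higher, where 20.1% of all transcripts passed in either direction, and DESeq2 called 13 members and 13.8% of all transcripts. Mki67 had 462, 294 and 312 CPM in injured blocked IP and 24.2, 9.66 and 9.48 CPM in naive blocked IP (log2 fold change 4.62, SE 0.54, adjusted p = 0.00565). Top2a had 268, 379 and 254 CPM in injured blocked IP and 2.73, 0.395 and 12.6 CPM in naive blocked IP (log2 fold change 5.84, SE 1.02, adjusted p = 0.0228). These 2 chromosome proteins rose in blocked IP as they did in input. Cenpe had 138, 346 and 147 CPM in injured blocked IP and 0, 0 and 3.81 CPM in naive blocked IP (log2 fold change 7.36, SE 1.48, adjusted p = 0.0333). Sgol2a had 34.1, 58.1 and 34.5 CPM in injured blocked IP and 0.93, 0 and 0.231 CPM in naive blocked IP (log2 fold change 6.74, SE 1.36, adjusted p = 0.0337). In both genes at least 1 naive library was at 0, so the size of the fitted fold change depends on few counts. The median log2 fold change over the 31 was 1.82 and 16 separated without overlap, which held for 12.6% of all transcripts. Fitted on the 6 blocked libraries alone no member was called by edgeR, while leaving out 1 library gave 1 to 8 calls, with 1 without injured blocked IP 2, 2 without naive blocked IP 2 and 8 without naive blocked IP 3. The shares of all transcripts called in these smaller fits are not given here.

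**Figure D3:**
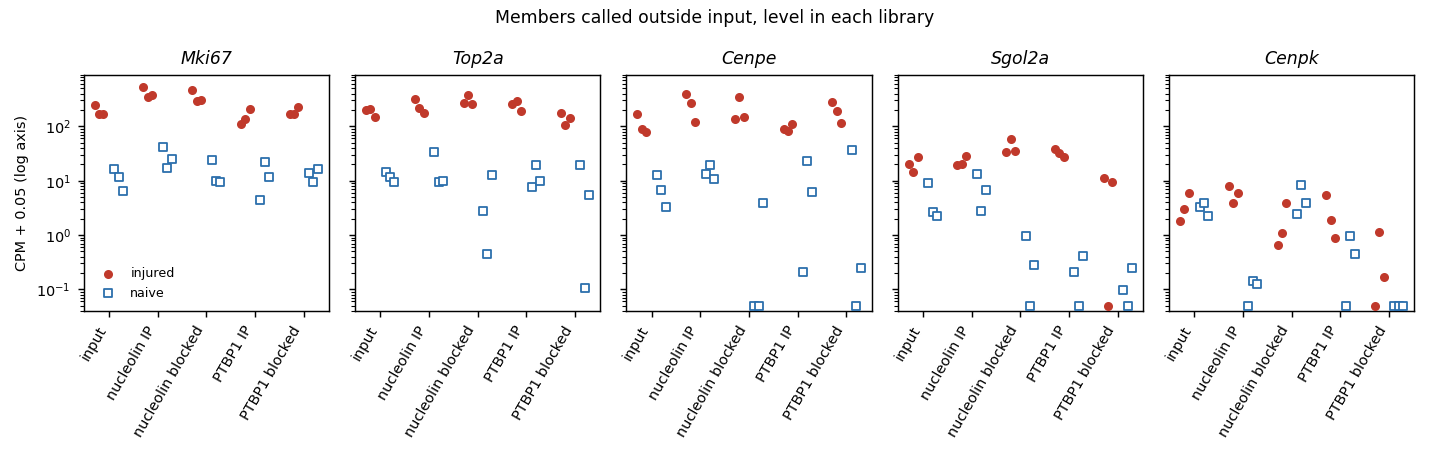
CPM + 0.05 (log axis) of the 5 members called in nucleolin IP or blocked IP, in every library of the 5 kinds of material, with injured libraries as filled circles left of naive libraries as open squares. Mki67 separates in all 5 materials, while Cenpk is near 0 in naive nucleolin IP, at 0 in all 3 naive PTBP1 blocked IPs, where it is represented by another transcript, and overlaps in input.

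Macrophage markers moved in these libraries too. Of 11 tested, 2 rose in nucleolin IP, with summed levels of 3407 to 11439 CPM in injured IP and 1333 to 2145 CPM in naive IP, and 1 rose in blocked IP, with 3872 to 10189 CPM in injured and 1825 to 3112 CPM in naive blocked IP. No tested macrophage marker was at 0 throughout a group, and the part of this shift was not tested. Of the list of 107 further cell cycle genes, 51 were tested, of which 1 rose in nucleolin IP and 2 in blocked IP, with median log2 fold changes of 1.58 and 1.76. Of the G1 brake list 19 were tested and 0 passed in either. Of all transcripts 0.397% rose in nucleolin IP and 0.735% in nucleolin blocked IP.

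In the PTBP1 libraries 45 members were tested and 0 passed in either direction after injury, in IP or in blocked IP, by edgeR. Of all 14540 transcripts 0.00688% rose in IP and 0.0206% in blocked IP, so few calls of any kind were made. At an unadjusted p under 0.05, 16 members were higher in IP and 18 in blocked IP, where 10.3% and 21.7% of all transcripts passed in either direction. DESeq2 called 10 members higher in IP and 14 in blocked IP, of which 1 (Pcna) was lower, where it called 5.12% and 18% of all transcripts. The summed level was 2123 to 2423 CPM in injured PTBP1 IP and 316 to 782 CPM in naive PTBP1 IP, and 1229 to 2083 CPM in injured blocked IP and 301 to 463 CPM in naive blocked IP. Single members weighed heavily in these sums. Ccna2 alone averaged 682 CPM in injured PTBP1 IP, and Anln, which did not rise, averaged 141 CPM in naive PTBP1 IP. The median log2 fold change was 2.62 in IP and 3.51 in blocked IP, against -0.14 and -0.01 for all transcripts. With members whose naive libraries were all at 0 set at their lower bound (3 counts over the group), the medians were 2.65 over 44 members, leaving out Cdc45 with 2 counts in all, and 3.44. In IP 28 members lay above without overlap and 1 below, where 15.4% and 13.8% of all transcripts did. In blocked IP 17 lay above and 1 below, where 8.95% and 11.3% did.

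Mki67 had the smallest adjusted p in both. It had 109, 137 and 207 CPM in injured PTBP1 IP and 4.28, 22.3 and 11.9 CPM in naive PTBP1 IP (log2 fold change 3.56, SE 0.75, adjusted p = 0.226). In blocked IP Mki67 had 166, 169 and 224 CPM in injured nerve and 13.6, 9.39 and 16.3 CPM in naive nerve (log2 fold change 3.83, SE 0.76, adjusted p = 0.0842). The Mki67 libraries separated in both without passing the test. Top2a had 260, 291 and 189 CPM in injured PTBP1 IP and 7.52, 19.4 and 9.70 CPM in naive PTBP1 IP (log2 fold change 4.33, SE 1.22, adjusted p = 0.255). The 1 member below in both was Pcna. It had 1.52, 0 and 1.41 CPM in injured PTBP1 IP and 3.56, 2.79 and 6.44 CPM in naive PTBP1 IP. In blocked IP Pcna had 0.557, 0 and 1.65 CPM in injured nerve and 17.2, 22.5 and 5.39 CPM in naive nerve (log2 fold change -4.32, SE 2.07, adjusted p = 0.241). Pcna was thus lower without overlap in both PTBP1 materials, did not pass edgeR's test, and was called lower by DESeq2 in blocked IP (log2 fold change -4.38, adjusted p = 0.0108). Rrm2 had 19.4, 47.8 and 56.2 CPM in injured PTBP1 IP and 0, 0.279 and 5.88 CPM in naive PTBP1 IP (log2 fold change 4.31, SE 1.98, adjusted p = 0.47). In blocked IP Rrm2 had 39.8, 93.9 and 51.9 CPM in injured nerve and 0, 0 and 1.08 CPM in naive nerve (log2 fold change 7.38, SE 2.29, adjusted p = 0.127). Rrm2 separated in both. Brca1 had 6.97, 6.37 and 17.9 CPM in injured blocked IP and was at 0 in all 3 naive blocked IPs. Against a floor of 3 counts over the naive group it was at least 258-fold higher, a bound that covers counting error only. Brca1 did not pass edgeR's test in blocked IP (log2 fold change 10.54, SE 2.93, adjusted p = 0.122). Every listed PTBP1 transcript reached 5 counts throughout some group, so a member at 0 in naive libraries could enter through the injured ones. Racgap1, a regulator of cytokinesis, was listed here and had 0.755 ± 0.200 CPM in injured PTBP1 IP and 0.130 ± 0.0523 CPM in naive PTBP1 IP (SD, n = 3 each). Cdc45, a component of the active replicative helicase, had at most 1.12 CPM in any PTBP1 library.

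Dropout was uneven over the PTBP1 libraries. Of the 45 members, 1, 2 and 0 were at 0 counts in injured IP 1 to 3 and 17, 8 and 2 in naive IP. In injured blocked IP 8, 5 and 0 were at 0, and in naive blocked IP 22, 24 and 10. Over all tested transcripts 1.27% to 6.51% were at 0 in injured IP, 2.35% to 18% in naive IP, 15.3% to 27.0% in injured blocked IP and 14.5% to 29.2% in naive blocked IP. Library 3 had the fewest members at 0 in each of the 4 groups. Cdk1 was at 0 in all 3 naive blocked IPs and had 7.80, 17.1 and 6.64 CPM in the injured ones, and Cdca3 was at 0 in all 6 naive PTBP1 libraries. Macrophage markers had summed levels of 2056 to 6562 CPM in injured PTBP1 IP and 985 to 1674 CPM in naive PTBP1 IP, with 14 tested and 0 called. In blocked IP they were 2861 to 6361 CPM in injured nerve and 1260 to 2100 CPM in naive nerve, with 0 of 14 called, and their part was not tested.

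**Figure D4:**
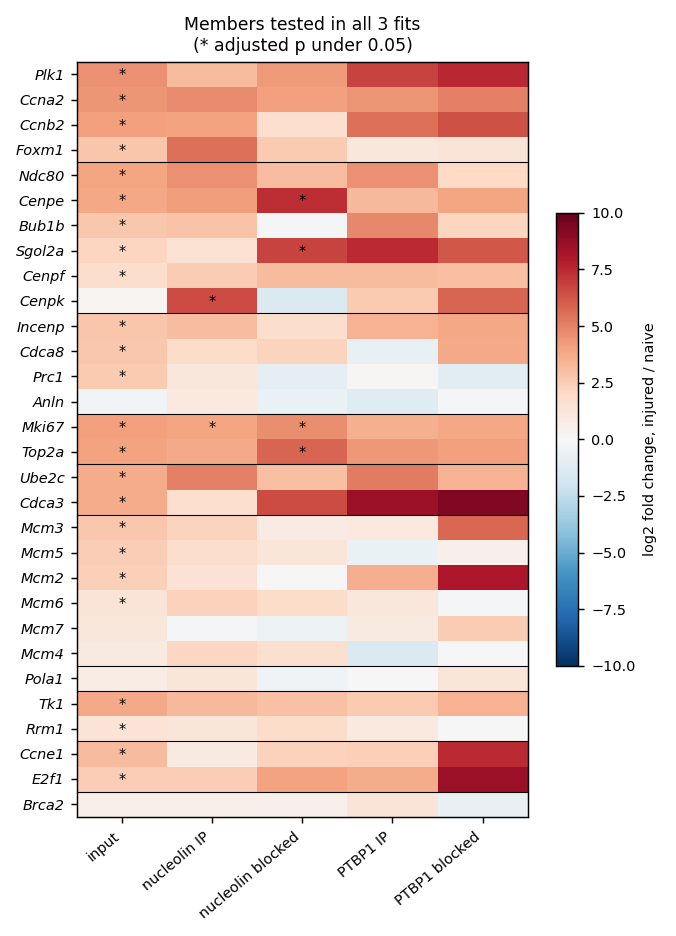
Log2 fold change of injured over naive nerve for the 30 members tested in all 3 fits, in input, nucleolin IP, nucleolin blocked IP, PTBP1 IP and PTBP1 blocked IP, with red above 0 and blue below 0 and an asterisk where the adjusted p was under 0.05. The rows of Ccna2, Mki67, Top2a, Cenpe and Cenpf are red throughout, and Anln is pale or blue in 4 of 5. The PTBP1 values of Cdca3 and the PTBP1 blocked value of Cenpk rest on naive libraries at 0.

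Each material has its own libraries, although all were made from the same extracts and the inputs were fractions of them. Of the 30 members tested in all 3 fits, 18 had a positive log2 fold change in all 5 materials, 7 in 4, 4 in 3 and 1, Anln, in 1. The groups did not overlap in any of the 5 materials for 7 members, namely Ccnb2, Cenpe, E2f1, Mki67, Tk1, Top2a and Ube2c. The share of all transcripts that did either in all 5 materials was not counted, so these counts are a description of the members only. Ccna2 ranged from 4.11 to 5.00 over the 5 materials, Mki67 from 3.56 to 4.62, Cenpf from 1.8 to 3.19 and Tk1 from 2.59 to 3.77, all as log2 fold changes. E2f1 ranged more widely, from 2.44 to 8.58. Among the helicase members Mcm3 ranged from 0.78 to 5.75, Mcm4 from -1.48 to 2.08, Mcm5 from -0.70 to 2.43 and Mcm7 from -0.48 to 2.57, so that Mcm3 alone of these 4 was positive throughout.

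IP against blocked IP asked which transcripts the antibody enriched. No member was called in any of the 4 comparisons by edgeR, and no transcript of the whole fit was, so the share of all transcripts it called was 0% in each. The members' median log2 fold change was -0.01 in injured nucleolin IP against blocked IP and -0.60 in naive, and 0.05 in injured PTBP1 IP against blocked IP and 0.32 in naive, or 0.43 with members at 0 in a whole group set at their bound. Over all transcripts the medians were -0.06, -0.11, 0.02 and 0.05 in the same order. The naive PTBP1 median rested on single libraries, being 2.50 without naive blocked IP 3 and -0.10 without naive IP 3. These medians are from fits without pairing. With a replicate block the naive medians were 0.24 for nucleolin and 1.74 for PTBP1, against 0.08 and 0.40 for all transcripts. In injured nucleolin IP 0 members passed at an unadjusted p under 0.05 and 0 by DESeq2, where 6.49% of all transcripts passed unadjusted and 2.68% by DESeq2, in either direction. In naive nucleolin IP 3 were higher and 5 lower unadjusted, and DESeq2 called 3 (Sgol2a higher, Cenpk and Foxm1 lower), where 12% and 6.51% of all transcripts passed. In injured PTBP1 IP 1, Tyms, was higher unadjusted and DESeq2 called 0, where 12.5% and 6.52% passed. In naive PTBP1 IP 7 were higher and 1 lower unadjusted, and DESeq2 called 4 (Cdk1, Mcm2, Pole and E2f1), all higher, where 13% and 7.94% passed.

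Members that separated fully were counted beside the share of all transcripts that did, and whether the members differed from that share was not tested. In injured nucleolin IP 1 member (Anln) lay above the blocked IP and 3 below it, where 12% and 6.02% of all transcripts did. In naive nucleolin IP 3 lay above and 2 below, where 12.3% and 6.28% did. In injured PTBP1 IP 8 lay above and 3 below, where 16.6% and 6.31% did, and in naive PTBP1 IP 3 lay above and 0 below, where 9.26% and 4.68% did. The 8 above in injured PTBP1 were Ccna2, Bub1b, Sgol2a, Nusap1, Top2a, Ube2c, Pole and Tyms, and the 3 below were Cenpe, Bub1 and Cdc45. Ccna2 had 1046, 645 and 354 CPM in injured IP and 4.67, 259 and 133 CPM in injured blocked IP (log2 fold change 2.37, SE 1.27, adjusted p = 0.506). Every injured IP lay above every injured blocked IP, and injured blocked IP 1 was far below the other blocked libraries. Top2a had 260, 291 and 189 CPM in injured IP and 177, 106 and 143 CPM in injured blocked IP (log2 fold change 0.80, SE 1.07, adjusted p = 0.90). Cenpe went the other way, with 90.0, 81.2 and 112 CPM in injured IP and 281, 192 and 117 CPM in injured blocked IP (log2 fold change -1.06, SE 1.68, adjusted p = 0.922).

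**Figure D5:**
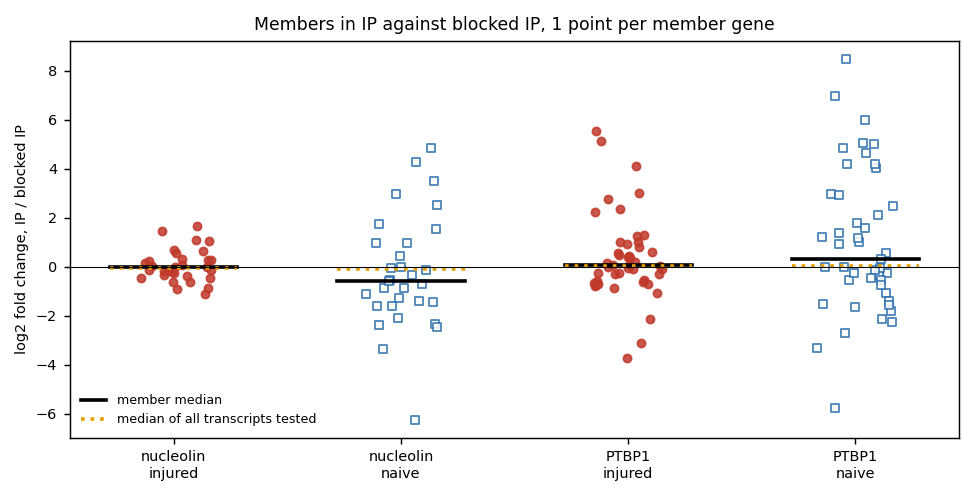
Log2 fold change of IP over blocked IP for each tested member, 31 in the nucleolin and 45 in the PTBP1 libraries, with the members' median as a black line and the median of all transcripts tested as a dotted line. The points lie on both sides of 0 in each column, the injured nucleolin points stay between -1.11 and 1.66, and no point was called.

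The change of the IP-to-blocked difference with injury was called for 0 members in either antibody, and for 0% of all transcripts. Unadjusted, 2 members had a positive and 2 a negative nucleolin interaction, and 0 and 3 a PTBP1 interaction, where 2.55% and 7.89% of all transcripts passed in either direction. DESeq2 called 2 for nucleolin (Cenpk and Sgol2a) and 0 for PTBP1, where it called 0.178% and 3.16% of all transcripts. Sgol2a had 19.2, 20.4 and 28.2 CPM in injured nucleolin IP and 34.1, 58.1 and 34.5 CPM in injured blocked IP. In naive nerve Sgol2a had 13.5, 2.75 and 6.73 CPM in IP and 0.93, 0 and 0.231 CPM in blocked IP. The IP lay below the blocked IP in injured nerve and above it in naive nerve, with an interaction of -5.18 (SE 1.59, adjusted p = 1.00). Cenpk went the other way, with 0, 0.095 and 0.0739 CPM in naive IP and 2.44, 8.41 and 3.87 CPM in naive blocked IP, and an interaction of 7.90 (SE 1.66, adjusted p = 1.00). Its injured IP and blocked IP overlapped in this fit. Scaled with the injured nucleolin libraries alone, its lowest IP (4.06 CPM) lay just above its highest blocked IP (4.01 CPM).

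The member transcripts were long. Their median length in the input fit was 3352 bases, against 2645 for all tested transcripts with an annotated sequence, and their range was 967 to 11130. Their median GC content was 46.6%, against 48.6%. The pyrimidine letters TCTT, a string that PTBP1 can bind, occurred 4.82 times per kilobase in the median member and 5.15 times in the median transcript. In the PTBP1 fit the medians were 4.57 for members and 5.12 for all transcripts. The members' transcripts therefore lay close to the rest in these counts, which are a description and say nothing of binding.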

How the data were processed

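Input, IP and blocked-IP RNA from axoplasm of mouse sciatic nerve was sequenced in 30 libraries, 3 for each of 10 groups, which the labels define. The authors deposited whole-number counts per Ensembl transcript. The submitters' processing notes name CASAVA 1.8.2, edgeR, mm10 and GRCm38. The aligner, counting tool, strand setting and transcript annotation were not given in the sources used here, so reads of overlapping, antisense or near-identical genes cannot be told apart. The column taken as naive nucleolin blocked IP 3 is marked PCP where the others are marked ctrl; for PTBP1, columns so marked held the same counts as a ctrl column of another table over 8833 and 10954 shared transcripts. A further 114 per-sample columns were not used.

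The 6 inputs, the 12 nucleolin and the 12 PTBP1 libraries were fitted separately on the raw counts with edgeR 4.0.16 in R 4.3.3 (limma 3.58.1; TMM, filterByExpr, quasi-likelihood test, Benjamini-Hochberg adjustment over all transcripts tested, threshold 0.05). Nucleolin tables were joined on their 11862 shared transcripts. Rows without a gene symbol, 199 in the input table, stayed in as transcripts. DESeq2 1.42.0 and the other settings below are alternatives. The scripts were tested on simulated counts. No pair of replicates agreed within counting noise (lowest chi-square per degree of freedom 57.9). A GRCm38 annotation matched 97.8% of 20440 identifiers.

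The members and lists were chosen with earlier results of these data known. Library values are given for the 3 members of highest mean input CPM in each role, for members called outside input, and for members called lower. Cdk1 and Nusap1 also have library values for IP or blocked IP, though this rule did not select them. Other members are named with fold changes, counts or group levels. P-values measure the spread between pooled samples. One result of the further cell cycle genes is not reported here.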

Additional observations from a re-analysis of the deposited data

Results flagged for a closer look

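In the joint nucleolin fit Sgol2a, a protector of centromeric cohesin, was the 1 member whose nucleolin IP lay on opposite sides of the blocked IP in the 2 nerve states without overlap. In injured nerve it had 19.2, 20.4 and 28.2 CPM in IP and 34.1, 58.1 and 34.5 CPM in blocked IP. In naive nerve it had 13.5, 2.75 and 6.73 CPM in IP and 0.93, 0 and 0.231 CPM in blocked IP. The difference between the states was tested as an interaction in edgeR and was -5.18 on the log2 scale (SE 1.59, unadjusted p = 0.00622, adjusted p = 1.00), so it did not pass. DESeq2 gave -5.27 (adjusted p = 0.0218). Cenpk had an interaction of the opposite sign, which DESeq2 also called (8.08, adjusted p = 0.00328). Its injured IP and blocked IP overlapped in the joint fit but not when the injured nucleolin libraries were scaled alone.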

How the results depend on the processing

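The input count was 29 to 34 of 42 with 1 library left out and 34 with DESeq2 or a replicate block. E2f1, Mcm6 and Prc1 lost their call in 5 of 12 settings, Rrm1 with library totals as the only scaling (adjusted p = 0.0894) and Sgol2a without naive input 2 (adjusted p = 0.056). Library totals moved the median of all transcripts to -0.26 and the share of calls that were higher to 36.4%, against 51.9%, while the members' median was 2.56. Pcna in input turned to -0.10 with library totals, and ranged from -0.23 to 1.06 with 1 library left out, being -0.23 without injured input 1 and -0.04 without naive input 3. DESeq2 called 12 members in nucleolin IP after injury, 13 in nucleolin blocked IP, 10 in PTBP1 IP, 14 in PTBP1 blocked IP, 3 in naive nucleolin IP against blocked IP, 4 in naive PTBP1 IP against blocked IP and 2 in the nucleolin interaction. With the 6 compared libraries alone edgeR called 15 in nucleolin IP, 0 in nucleolin blocked IP and 1 (Top2a) in PTBP1 IP. Leaving out 1 library gave 0 to 1 calls in nucleolin IP, 1 to 8 in nucleolin blocked IP, 0 to 4 in naive nucleolin IP against blocked IP (4, namely Plk1, Cenpe, Cenpk and Dnmt1, without naive blocked IP 3) and 0 to 1 in the nucleolin interaction (Cenpe, without naive blocked IP 3). The cause was not tested. The main fits did not pair samples by replicate number, and the correlations do not settle whether the numbers pair them. At least 1 same-numbered pair correlated under 0.1 in each comparison (input 0.155, 0.0551 and 0.137). In some comparisons, however, every same-numbered pair correlated above every other pair. For nucleolin blocked IP injured against naive the lowest same-numbered value was 0.0623 and the highest other value 0.00696. For injured PTBP1 IP against blocked IP these were 0.0917 and 0.0420, and for naive PTBP1 IP against blocked IP 0.0477 and 0.00456. The replicate block gave 4 calls in nucleolin IP and 5 in nucleolin blocked IP. It moved the members' median to 0.24 in naive nucleolin IP against blocked IP and to 1.74 in naive PTBP1 IP against blocked IP. For settings other than the main fits and DESeq2, the share of all transcripts called is not given here. A change in the number of members called under them cannot be told apart from a change in calls over all transcripts. Fits on each nucleolin table alone, added after seeing the data, called 0 members. Of the values of single members under other settings, 355 kept direction and side of the threshold, 27 lost and 5 gained their call, and 3 turned sign. Intervals and floors cover counting error only, and members at 0 in naive PTBP1 libraries were not detectable at this depth rather than absent.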
